A study of Mus musculus with 12 samples.

Results

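Neuron-enriched miRNAs were represented on the hippocampal TaqMan OpenArray by 8 assays, out of 619 miRNA assays with at least 1 Ct value. They were every assay for miR-9, miR-124, miR-128, miR-137 or miR-138, with any letter, arm or mark. This rule used names and no measured value, but it was chosen with earlier results of these data known. The assays were miR-9, miR-9#, miR-124a, miR-124#, miR-128a, miR-137, miR-138 and miR-138#, where the mark # stands in this older naming for the minor strand of a hairpin. Each assay was a qPCR read as the threshold cycle (Ct), and a lower Ct means more miRNA. The study asked whether hippocampal miRNA levels depend on the P2X7 receptor, an ATP-gated ion channel, before and after status epilepticus, a prolonged seizure.

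The 12 samples fell into 4 groups of 3. Wild-type (wt) control and *P2rx7*-/- control mice had received vehicle into the amygdala, and the post-SE groups of both genotypes had received kainic acid (KA), which induces status epilepticus. RNA came from the ipsilateral hippocampus 8 h after the injection, with 1 µg of total RNA per sample, and each sample pooled 2 hippocampi from different mice. All mice were C57BL/6 with a labelled age of 8 weeks, all were male by the methods of the study, and all, vehicle-injected controls included, received the anticonvulsant lorazepam after the injection. The knockout is constitutive and lacks exon 2 of *P2rx7*, so that absence of the receptor during development and absence at the time of the seizure cannot be told apart. *P2rx7* mRNA was not measured on this array, and the genotype labels were not checked by it. In bulk hippocampus, fewer neurons and less miRNA per neuron cannot be told apart.

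A miRNA is cut from a hairpin transcript, and 1 strand of the duplex is loaded into an Argonaute protein, where its seed, bases 2 to 8, pairs with target mRNAs. miR-124 and miR-9 are textbook regulators of neuronal identity, acting on the splicing repressor PTBP1 and on the REST repressor complex. miR-128 is known for restraining neuronal excitability, miR-137 for neuronal maturation and synaptic function, and miR-138 for control of dendritic spine size. They are treated here as neuron-enriched, which does not make them specific to neurons. How much other cells of the hippocampus contribute to their signal was not tested.

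Mature sequences for 6 of the 8 assays were taken from RefSeq (GRCm38.p6) and are shown 5′ to 3′ with the seed in capitals, because the seed decides which transcripts each of these miRNAs can pair with and because the assays read different strands of the same hairpins. The name of the miR-138# assay does not say which of 2 hairpins its strand comes from, so both are given.
miR-9 (miR-9-5p): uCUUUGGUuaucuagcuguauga
miR-9# (miR-9-3p): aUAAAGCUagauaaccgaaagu
miR-128a (miR-128-3p): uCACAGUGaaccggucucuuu
miR-137 (miR-137-3p): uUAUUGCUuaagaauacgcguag
miR-138 (miR-138-5p): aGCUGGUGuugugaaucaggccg
miR-138# (miR-138-1-3p): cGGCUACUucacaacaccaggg
miR-138# (miR-138-2-3p): gCUAUUUCacgacaccagggu

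These 7 seeds all differed from each other, and 0 other mature mouse miRNAs in the table carried any of them at bases 2 to 8. miR-128-3p came closest to another family: its first 8 bases, UCACAGUG, also stand in miR-27a-3p and miR-27b-3p, where the run starts at base 2 and not at base 1. The 2 minor strands of miR-138 shared a run of 9 bases, ACACCAGGG, near their 3′ ends and had different seeds.

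Several of these miRNAs are made from more than 1 locus, so that 1 assay reads the sum of its copies. On GRCm38.p6, miR-9 hairpins lie at chr3:88215598-88215686, chr13:83738814-83738885 and chr7:79505264-79505353, all on the plus strand and each within the span of a long non-coding RNA gene, *Gm3764*, *C130071C03Rik* and *Mir9-3hg*. miR-128 hairpins lie at chr1:128202361-128202430 on the plus strand, within the span of the protein-coding gene *R3hdm1*, and at chr9:112118636-112118711 on the minus strand, within the span of *Arpp21*. miR-138 hairpins lie at chr9:122682876-122682974, with no other annotated gene around it, and at chr8:94324311-94324381, within the span of *Nup93*, both on the plus strand. miR-137 has 1 hairpin, at chr3:118433857-118433929 on the plus strand, with no other annotated gene around it. The annotation table gives gene spans without exons, and whether these positions are exonic or intronic was not analysed here.

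Before the results, 1 sample has to be named. wt control replicate 1 stood apart from the other 11 samples: over the 335 miRNA assays with a Ct in all 12 samples, its Spearman correlation with the others was 0.66 to 0.737, against 0.872 to 0.989 between the others, and 47 assays were empty in it alone. Results that rest on it are given with and without it. Levels below are −ΔCt, the number of cycles by which an assay lay above the mean of the 335 assays in its own sample, so that 1 unit is about a factor of 2. The sample means ranged from Ct 18.3 to 19.3.

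Most of these assays were among the more abundant signals of the hippocampus, as the plot of all assays by median Ct shows. Ranked by median Ct over the samples with a value, miR-9 was 5th of 619 (Ct 10.46) and miR-138 9th (Ct 10.56). miR-9# followed in place 34 (Ct 12.01). miR-128a, miR-137 and miR-124a lay close together in places 79, 82 and 87, with a median Ct of 14.41, 14.57 and 14.65. miR-138# was in place 189 (Ct 17.36), and miR-124# in place 335 (Ct 20.27). Assays differ in efficiency, so these places compare signals and not numbers of molecules. The ranking also holds assays with few values, such as miR-509-3p in place 1 (a Ct in 1 sample) and miR-1937B in place 2 (in 2 samples). The place of miR-9 itself rests on 4 samples.

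**Figure D1:**
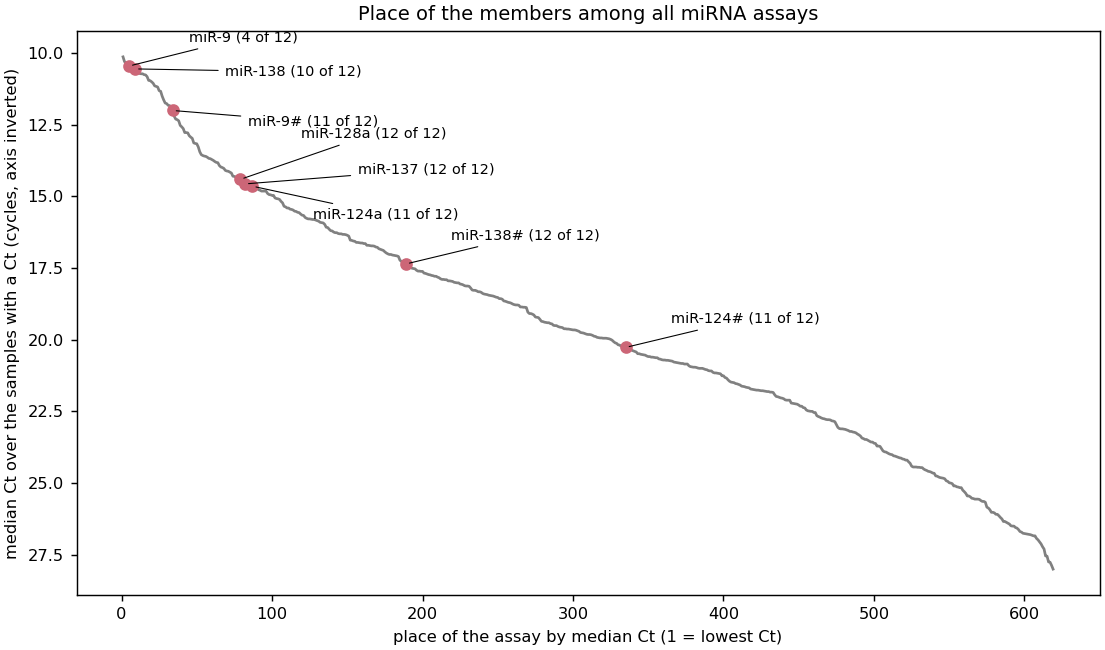
Median Ct (inverted axis, over the samples with a Ct) of all 619 miRNA assays in order of place, with the 8 neuron-enriched assays as labelled points and the number of samples with a Ct in brackets. miR-9 and miR-138 sit at the low-Ct end of the curve, near Ct 10, while miR-124# sits in place 335.

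Abundance and detection did not go together. miR-9 had a Ct in 4 of 12 samples, miR-138 in 10, miR-9#, miR-124a and miR-124# in 11 each, and miR-128a, miR-137 and miR-138# in all 12. The table lists Ct values from 10 to 28. If the samples empty for miR-9 had held its median level, their Ct would have been 9.59 to 10.42, and 4 of these 8 values would have been below 10. For the 2 samples empty for miR-138 the same calculation gave 10.01 and 10.27. Among the other 17 assays with a median Ct of 10 to 11, 56.9% of values were empty, against 15.1% of values for 27 assays between 11 and 13 and 10.98% for 85 assays between 13 and 16. The 17 ranged from assays with a Ct in 1 sample (such as miR-509-3p and miR-2134) to assays with one in all 12 (miR-30c and miR-16). Their share therefore mixes rarely detected assays with regularly detected ones. An empty value for miR-9 or miR-138 gives no level, low or high. Whether the true signal lay below the range of listed values was not tested.

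The empty values of the other 3 assays fell elsewhere in the range. miR-9# was empty in wt control replicate 1, where its median level would have given a Ct of 12.22. miR-124a was empty in *P2rx7*-/- control replicate 1, at a corresponding Ct of 14.85, and miR-124# in wt post-SE replicate 1, at 20.75. These were the 3 samples with the most empty miRNA assays, 24.1%, 21.2% and 23.1% of 619, against 13.1% in the sample with the fewest.

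miR-9, the major strand, could not be compared between groups. It was empty in all 3 wt control samples. In *P2rx7*-/- control samples its level was 8.72 in replicate 1 and 6.88 in replicate 3. In wt post-SE mice it was 9.21 in replicate 1, and in *P2rx7*-/- post-SE mice 8.61 in replicate 3. At the median level of miR-9, the Ct in wt controls would have been 10.39 in replicate 1, 9.90 in replicate 2 and 9.59 in replicate 3. The absence of values from wt controls gives no direction, and its cause was not tested.

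miR-9#, from the other strand of the same hairpins, was measured in 11 samples at a level between 6.10 and 7.52. Its level was 6.71 and 6.48 in wt controls (replicates 2 and 3), 7.44, 6.83 and 7.17 in *P2rx7*-/- controls, 7.52, 6.44 and 6.54 in wt post-SE mice, and 6.10, 6.94 and 7.07 in *P2rx7*-/- post-SE mice. All 3 *P2rx7*-/- control samples were above both wt controls, and the other groups overlapped. The mean fold change (FC, 2 to the power −ΔΔCt) of *P2rx7*-/- against wt controls was 1.49 ± 0.311 (SD, n = 3), with a log2 difference of 0.55 ± 0.46 (SE, limma, adjusted p = 0.797).

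miR-124a, the major strand of the brain-enriched miR-124, kept between 3.56 and 4.91. Its level was 3.89, 4.26 and 4.51 in wt controls, 4.28 and 3.56 in *P2rx7*-/- controls (replicates 2 and 3), 4.31, 4.67 and 4.91 in wt post-SE mice, and 4.74, 4.43 and 3.76 in *P2rx7*-/- post-SE mice. All groups overlapped with their neighbours in the order of the means. The mean was highest in wt post-SE mice (4.63 ± 0.302, SD, n = 3) and lowest in *P2rx7*-/- controls (3.92 ± 0.51, SD, n = 2). Averaged over genotypes, post-SE minus control was 0.40 ± 0.28 on the log2 scale (SE, limma, adjusted p = 0.856).

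miR-124#, its minor strand, was the weakest and a much more variable signal. Its level was −4.30, −1.45 and −1.48 in wt controls, −3.77, −0.24 and −0.50 in *P2rx7*-/- controls, −2.35 and −1.90 in wt post-SE mice (replicates 2 and 3), and −1.41, −1.59 and −1.20 in *P2rx7*-/- post-SE mice. Replicate 1 of both control groups lay far below the other samples of its group. The 3 *P2rx7*-/- post-SE samples were all above the 2 measured wt post-SE samples, with a mean FC of 1.67 ± 0.23 (SD, n = 3) and a log2 difference of 0.73 ± 1.15 (SE, limma, adjusted p = 0.999). An exact two-sided permutation test gave p = 0.2, the smallest p that 3 samples against 2 allow.

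miR-128a was among the steadier of the 335 assays with a Ct in all samples. Its level was 4.24, 4.87 and 4.37 in wt controls, 4.70, 5.12 and 4.75 in *P2rx7*-/- controls, 4.37, 4.48 and 4.79 in wt post-SE mice, and 5.59, 4.63 and 4.62 in *P2rx7*-/- post-SE mice. One sample, *P2rx7*-/- post-SE replicate 1, was above all others, and the groups overlapped. The pooled within-group SD of miR-128a was 0.36 cycles, and 11.9% of the 335 assays had a smaller one, the median being 0.636. Without wt control replicate 1 its SD was 0.356, and 19.9% of 382 assays had a smaller one. Mean FCs lay between 1.04 ± 0.164 for wt post-SE against wt control and 1.44 ± 0.599 for *P2rx7*-/- post-SE against wt control (SD, n = 3).

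miR-137 had a similar median Ct to miR-128a and a larger spread. Its level was 1.14, 4.28 and 4.54 in wt controls, 3.71, 4.18 and 4.75 in *P2rx7*-/- controls, 5.70, 4.13 and 4.38 in wt post-SE mice, and 4.83, 4.19 and 3.95 in *P2rx7*-/- post-SE mice. The lowest value belonged to wt control replicate 1 and the highest to wt post-SE replicate 1, and all groups overlapped. The pooled within-group SD was 1.09 cycles, with 75.5% of assays below it. Without wt control replicate 1 the SD was 0.533, at the median over 382 assays.

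miR-138 gave the largest difference between samples of any of these assays, and it lay in 1 sample. Its level was −4.94 and 8.02 in wt controls (replicates 1 and 2), 8.58, 8.15 and 8.87 in *P2rx7*-/- controls, 8.01, 8.39 and 8.19 in wt post-SE mice, and 8.28 and 8.96 in *P2rx7*-/- post-SE mice (replicates 2 and 3). The Ct was 23.99 in wt control replicate 1 and 10.12 to 11.26 in the other 9 samples with a value. With that sample, *P2rx7*-/- minus wt control was 6.99 ± 3.00 on the log2 scale (SE, limma, adjusted p = 0.74), with sample FCs of 131, 97.9 and 161, and an exact two-sided permutation test gave p = 0.2. Without it, 1 wt control value remained and the mean FC was 1.47.

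miR-138#, read from the same RNA, did not share that drop: wt control replicate 1 held its highest wt control level. Its level was 1.76, 1.27 and 1.45 in wt controls, 1.02, 1.37 and 1.73 in *P2rx7*-/- controls, 1.27, 1.35 and 1.40 in wt post-SE mice, and 1.88, 1.34 and 2.16 in *P2rx7*-/- post-SE mice. The wt post-SE samples lay closest together, and 2 of 3 *P2rx7*-/- post-SE samples were above all other samples. The mean FC of *P2rx7*-/- against wt post-SE mice was 1.40 ± 0.383 (SD, n = 3), with a log2 difference of 0.45 ± 0.31 (SE, limma, adjusted p = 0.999). Its within-group SD of 0.30 cycles was lower than that of miR-128a, with 5.67% of assays below it.

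**Figure D2:**
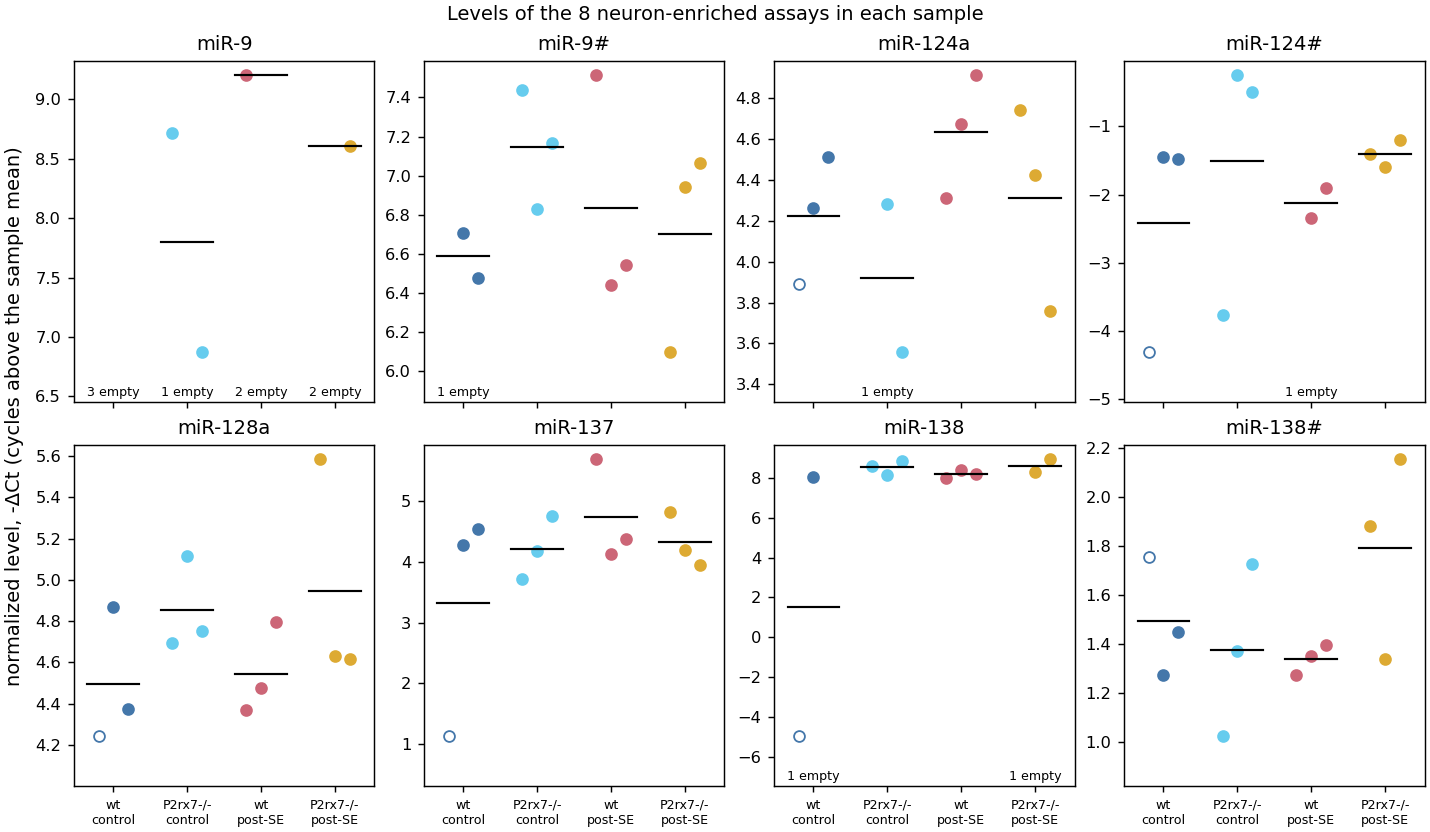
Level (−ΔCt, cycles above the sample mean) of each of the 8 assays in each sample, with points for samples, horizontal lines for group means and the number of empty values at the foot. The open circle is wt control replicate 1, which holds the lowest value of miR-124#, miR-128a, miR-137 and miR-138, and in miR-138 lies near −4.94 against 8.01 to 8.96 in the other samples.

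The difference in Ct between both strands of a hairpin within a sample is free of the normalizer, and gives a second view of these miRNAs. miR-138# came up later than miR-138 by 6.74 to 7.55 cycles in 9 samples (median 6.80), while in wt control replicate 1 it came up earlier, with a difference of −6.69 cycles. miR-9# came up 1.27, 1.69 and 1.54 cycles later than miR-9 in 3 of the 4 samples with both values and earlier in *P2rx7*-/- control replicate 3, with a difference of −0.29 cycles. For miR-124, the strand difference ran from 4.06 to 7.02 cycles in 9 samples, and was 8.20 in wt control replicate 1. By group it was 8.20, 5.71 and 5.99 cycles in wt controls, 4.53 and 4.06 in *P2rx7*-/- controls (replicates 2 and 3), 7.02 and 6.82 in wt post-SE mice (replicates 2 and 3), and 6.15, 6.02 and 4.96 in *P2rx7*-/- post-SE mice. The 2 *P2rx7*-/- control values were below all others, and the 2 wt post-SE values were below wt control replicate 1 and above the rest. These differences are given as a description, without a test.

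**Figure D3:**
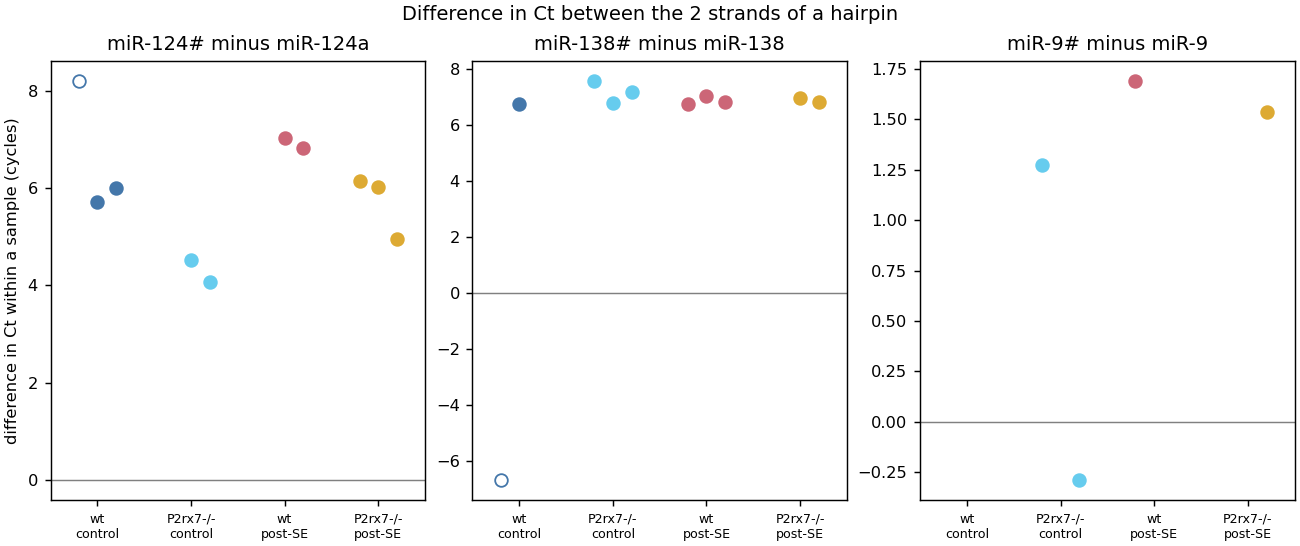
Ct of the minor strand minus Ct of the major strand within each sample, in cycles, for miR-124, miR-138 and miR-9, by group, with wt control replicate 1 as the open circle. The miR-138 difference stays between 6.74 and 7.55 cycles except in that sample, where it is −6.69, and the miR-124 difference is lowest in the 2 *P2rx7*-/- control samples with both values.

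Under the rule of the study's methods, a miRNA with a Ct in all samples counted as up-regulated at a mean FC over 1.5 and as down-regulated at one under 0.6. Applied here, this rule called more assays than the paper reports, in the comparisons that the paper counts. The shares below are those of the rule as applied here, and the reason for the difference was not tested. Of the 3 neuron-enriched assays the rule covered, miR-137 was up-regulated in the 3 comparisons against wt controls, and miR-128a and miR-138# in none of the 5. For *P2rx7*-/- against wt controls, the sample FCs of miR-137 were 1.32, 1.81 and 2.70, with a mean of 1.94 ± 0.703 (SD, n = 3); the rule called 21.2% of the 335 assays up and 15.5% down. For wt post-SE against wt controls they were 5.22, 1.75 and 2.09, with a mean of 3.02 ± 1.91; the rule called 23.3% up and 12.5% down. For *P2rx7*-/- post-SE mice against wt controls they were 2.85, 1.83 and 1.55, with a mean of 2.08 ± 0.683, beside 20.6% up and 13.1% down. All 3 calls of miR-137 were lost without wt control replicate 1, where the mean FCs were 0.923, 1.38 and 0.95, so that 2 of them also changed direction. These 3 comparisons share their reference samples. miR-9#, empty in wt control replicate 1 alone, entered the rule once that sample was left out. It was then called up for *P2rx7*-/- against wt controls, at a mean FC of 1.503 against 2 wt control samples.

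Comparisons without wt controls gave 0 calls among the 3 assays. For *P2rx7*-/- post-SE against *P2rx7*-/- control mice, mean FCs were 1.12 ± 0.467 for miR-128a, 1.11 ± 0.367 for miR-137 and 1.37 ± 0.374 for miR-138# (SD, n = 3), beside 17.9% of all assays called up and 7.16% down. For *P2rx7*-/- against wt post-SE mice they were 1.39 ± 0.578, 0.777 ± 0.255 and 1.40 ± 0.383, beside 17.0% called up and 4.48% down.

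Samples of a pair of groups rarely fell apart. Over the 7 assays with a Ct in at least 2 samples of each group, 2 did not overlap between *P2rx7*-/- and wt controls (miR-9# and miR-138, both higher in *P2rx7*-/- mice, and both with 2 wt values), beside 15.5% of 478 assays. The count was 0 for wt post-SE against wt controls, beside 12.3%, and 0 for *P2rx7*-/- post-SE against *P2rx7*-/- controls, beside 8.58%. It was 1 for *P2rx7*-/- post-SE against wt controls (miR-138), beside 10.7%, and 1 for *P2rx7*-/- against wt post-SE mice (miR-124#), beside 7.32%. In every one of these cases at least 1 of the 2 groups had an empty value, and groups with fewer values fall apart more easily. The 478 assays include those without empty values, so their shares are not an even reference for these cases. Leaving wt control replicate 1 out, miR-138 had 1 wt control value, 8.02, below all *P2rx7*-/- values.

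No neuron-enriched assay passed the adjusted limma test in any comparison. limma called 0 of 335 assays with a Ct in all samples (0.0%) and 0 of 478 with a Ct in at least 2 samples of each group (0.0%) in each of the 5 comparisons, in the averaged effects and in the interaction. The count at an unadjusted p under 0.05 was 4 to 20 of 335 and 4 to 23 of 478, and the unmoderated test named in the methods gave 4 to 16 of 335 before adjustment and 0 after it. Among the 7 neuron-enriched assays fitted, miR-138 between *P2rx7*-/- and wt controls was the 1 case with an unadjusted limma p under 0.05, and the unmoderated test had 0 among the 3 it covered. The lowest p of these assays for the interaction of genotype and treatment was 0.16 (limma, unadjusted), so that a response to status epilepticus that differed between genotypes was not detectable in them at this number of samples.

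Averaged over genotypes, post-SE minus control on the log2 scale was −0.10 ± 0.31 for miR-9#, 0.40 ± 0.28 for miR-124a, 0.19 ± 0.77 for miR-124#, 0.07 ± 0.24 for miR-128a, 0.76 ± 0.58 for miR-137, 3.37 ± 2.12 for miR-138 and 0.13 ± 0.22 for miR-138# (SE, limma). Leaving out wt control replicate 1 moved miR-138 to 0.10 ± 0.32 and miR-137 to 0.18 ± 0.34, and turned miR-124# to −0.30 ± 0.67 and miR-128a to −0.026 ± 0.25. An exact two-sided permutation test within genotypes gave p = 0.12 for miR-138, p = 0.145 for miR-124a and p = 0.3 for miR-137, with higher values for the other 4.

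Averaged over treatments, *P2rx7*-/- minus wt was 0.38 ± 0.24 for miR-128a, −0.31 ± 0.28 for miR-124a, 0.21 ± 0.31 for miR-9#, 0.82 ± 0.77 for miR-124#, 0.24 ± 0.58 for miR-137, 3.71 ± 2.12 for miR-138 and 0.17 ± 0.22 for miR-138# (log2, SE, limma). miR-124a was the 1 assay of the 7 with a lower mean in *P2rx7*-/- mice, and with the small nucleolar RNA snoRNA135 as the normalizer its difference was 0.038. Without wt control replicate 1 the difference of miR-137 turned to −0.30 ± 0.34, that of miR-138 moved to 0.48 ± 0.32 and that of miR-124# to 0.34 ± 0.67. At these SEs, small differences were not detectable with 3 samples a group.

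**Figure D4:**
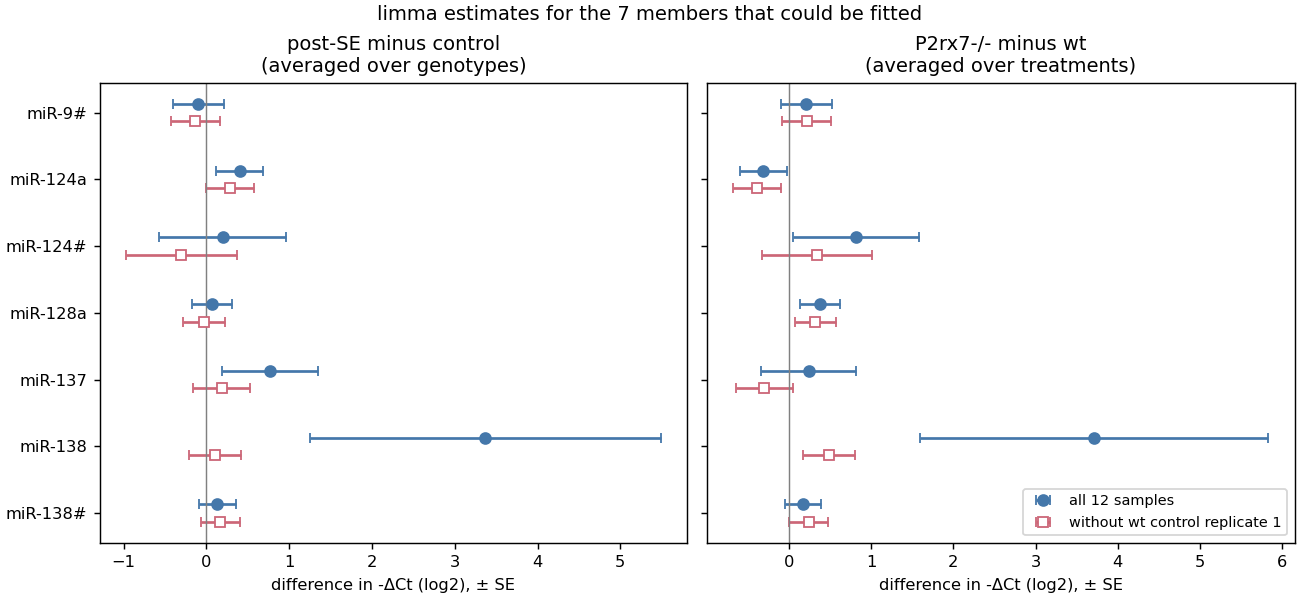
limma estimates (log2 difference in −ΔCt, bars ± SE) for the 7 assays that could be fitted, for post-SE minus control and for *P2rx7*-/- minus wt, with all 12 samples (filled circles) and without wt control replicate 1 (open squares). The estimate of miR-138 falls from 3.37 to 0.10 and from 3.71 to 0.48 without that sample.

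The neuron-enriched assays did not vary as 1 block. Over the 21 pairs of the 7 assays with a Ct in at least 10 samples, Pearson's r of the levels ran from −0.669 to 0.866, 13 pairs were above 0, and 0 passed the adjusted threshold by r or by Spearman's rho. The highest r, between miR-137 and miR-138 (0.866 over 10 samples, permutation p = 0.0834, adjusted p = 0.414), came with a rho of −0.115 (permutation p = 0.76, adjusted p = 0.867), and was −0.0346 without the 2 samples farthest from the median of miR-137, so that it rested on those samples. The lowest p belonged to miR-124# and miR-137 (r = 0.761 over 11 samples, permutation p = 0.00426, adjusted p = 0.0895; rho = 0.509, permutation p = 0.114, adjusted p = 0.799). That r was 0.188 without wt control replicate 1 and *P2rx7*-/- control replicate 1, and rested on them.

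The lowest r was that of miR-9# and miR-124a, with r = −0.669 over 10 samples (permutation p = 0.0343, adjusted p = 0.361) and rho = −0.733 (permutation p = 0.0199, adjusted p = 0.418), and r was −0.872 without the 2 samples farthest from the median of miR-9#. This pair did not pass the adjusted threshold either. The 2 strands of miR-138 had r = −0.263 over 10 samples (permutation p = 0.377, adjusted p = 0.665; rho = 0.2, permutation p = 0.585, adjusted p = 0.867) and r = 0.715 over 9 samples without wt control replicate 1.

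For the 3 assays with a Ct in all samples, the 3 most similar patterns among the other assays of that kind were noted by Pearson's r over the 12 samples, as a description. miR-128a was most like miR-219 (r = 0.792), the marker of oligodendrocytes, followed by miR-491 (0.753) and miR-434-5p (0.722). miR-137 was most like miR-101 (0.952), miR-30a-5p (0.944) and miR-150 (0.935), which were 0.802, 0.802 and 0.691 without wt control replicate 1. miR-138# was most like miR-34c# (0.777), miR-592 (0.743) and miR-200b (0.722).

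Other miRNAs known as enriched in neurons were read from a list of 7 numbers (miR-129, miR-132, miR-134, miR-135, miR-153, miR-212 and miR-218), with 12 assays on the array and 9 with a Ct in all samples. limma called 0 of these 9 for status epilepticus averaged over genotypes. The median log2 difference was 0.45, with 6 of 9 higher post-SE, beside a median of −0.05 over all 335 assays and of 0.13 over miR-128a, miR-137 and miR-138#. The lowest p belonged to miR-212, which is made with miR-132 from a locus induced by neuronal activity (log2 difference 0.63 ± 0.26, SE, limma, adjusted p = 0.829). The summed level of the 9 (sum of 2 to the power −ΔCt) ran from 118 to 123 in wt controls, 97.7 to 497 in *P2rx7*-/- controls, 169 to 302 in wt post-SE and 136 to 247 in *P2rx7*-/- post-SE mice. By median Ct, miR-212 (11.94) weighs most in this linear sum, followed by miR-129-3p (14.82), so the sum is not an even reading of the 9. The abundant assays miR-132 and miR-218, with a Ct in 9 and 8 samples, are not part of it. The summed level of miR-128a, miR-137 and miR-138# was 24.5 in wt control replicate 1 and 46.7 and 51.0 in the other wt controls, 41.1 to 57.2 in *P2rx7*-/- controls, 42.3 to 75.1 in wt post-SE and 44.4 to 80.1 in *P2rx7*-/- post-SE mice.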

How the data were processed

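The authors deposited Ct values of hippocampal TaqMan OpenArray assays, in cycles and not normalized, and a table of fold changes, which was not used. Per the paper's methods, cDNA was pre-amplified and run on a QuantStudio 12K Flex; software that called the Ct is not given in the sources used here. Each of the 8 assays was read once per sample, while snoRNA135 and snoRNA202 had 16 wells each, of which the sample median was used. Columns not assigned to a sample numbered 0. Groups and replicate numbers came from the labels. −ΔCt was the mean Ct of a sample over the 335 miRNA assays with a Ct below 28 in all 12 samples, minus the assay's Ct. limma 3.58.1 (lmFit, eBayes; R 4.3.3) was fitted with 1 coefficient per group, over these 335 assays and over 478 with a Ct in at least 2 samples of each group (empty values left out), with Benjamini-Hochberg adjustment and a threshold of 0.05. It was tested on simulated data. Exact permutation tests of single assays cannot go below p = 0.1 for 3 samples against 3. Correlations used 100000 resamples, or all orders under 10 samples. Python 3.11.15, numpy 2.4.6, pandas 2.3.3 and scipy 1.17.1 computed the rest. Assays were named in the text by a rule that took all members and the 3 assays most like each member with a Ct in all samples. It also took the assay with the lowest p for status epilepticus in each marker list, and the control assays. A few further assays were named outside this rule, as examples from the ranking by Ct, the marker lists or the summed levels. Members, lists and tests were chosen with earlier results of these data known. Alternatives were 4 other normalizers, a Ct cut-off of 26, the wider filter, a replicate block, array weights, geometric mean FCs, the methods' t-test, empty values set to 28 and each sample left out. Setting empty values to 10 was chosen after seeing the data.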

Additional observations from a re-analysis of the deposited data

How the results depend on the processing

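Of 280 recomputed log2 differences of single assays, 262 kept their direction and their side of the threshold. With empty values set to 28, post-SE minus control became 2.49 for miR-9# and −0.91 for miR-124#. With empty values set to 10, it became −0.47 for miR-124a, and *P2rx7*-/- minus wt became −0.20 for miR-9#, 0.56 for miR-124a and −1.08 for miR-124#, while the mean FC of miR-124# between post-SE groups became 0.12. That FC was 7.67 with empty values set to 28. For *P2rx7*-/- against wt controls, the mean FC was 54.0 (set to 28) and 0.844 (set to 10) for miR-9#, and 1768 and 27.6 for miR-138. With snoRNA135 as the normalizer, *P2rx7*-/- minus wt was 0.038 for miR-124a; with snoRNA202, post-SE minus control was −0.083 for miR-128a and −0.022 for miR-138#; with array weights, *P2rx7*-/- minus wt was −0.14 for miR-137. The causes were not tested. snoRNA135 moved the median difference between genotypes over all 335 assays by 0.35, the median normalizer by 0.11, and snoRNA202 moved that after status epilepticus by −0.15.

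The number of neuron-enriched assays called by the FC rule went from 1 to 2 (*P2rx7*-/- against wt controls) and 3 (*P2rx7*-/- post-SE against wt controls), and from 0 to 2 (between post-SE groups), with snoRNA135, all up, beside 44.8%, 41.2% and 27.8% of all 335 assays called up. It was 2 in each of the last 2 comparisons with the median normalizer, beside 26.3% and 23%, and 2 between post-SE groups with snoRNA202, beside 28.4%. Down-regulated shares moved too: for *P2rx7*-/- against wt controls they were 6.87% with snoRNA135 and 22.7% with snoRNA202, which called 16.1% up. The wider filter, which covers 7 assays, gave 3 calls for *P2rx7*-/- controls, 2 for wt post-SE and 3 for *P2rx7*-/- post-SE mice against wt controls, and 1 between post-SE groups, all up, beside 25.5%, 26.8%, 24.5% and 20.3% of 478 assays called up. limma called 2 assays for status epilepticus averaged over genotypes with the median normalizer and 2 with a Ct cut-off of 26, in place of 0. The methods' t-test at an unadjusted p under 0.05 gave 13, 11, 8, 16 and 4 assays, for *P2rx7*-/- control and wt post-SE against wt control, *P2rx7*-/- post-SE against *P2rx7*-/- control, wt control and wt post-SE. Pairs of correlated assays became 2 with the median normalizer (miR-9# with miR-124a, miR-124# with miR-137) and 1 with snoRNA202 (the latter pair).

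Leaving out 1 sample at a time, limma counts lay between 0 and 1 for status epilepticus averaged, wt post-SE against wt control and *P2rx7*-/- post-SE against either control, the calls arising without *P2rx7*-/- control replicate 2 or, for the first, also without wt control replicate 2. FC calls of neuron-enriched assays lay between 1 and 2 for *P2rx7*-/- against wt controls, 0 and 1 for wt post-SE against wt controls and for *P2rx7*-/- post-SE against *P2rx7*-/- controls, and 0 and 2 for *P2rx7*-/- post-SE against wt controls and against wt post-SE mice. Correlated pairs lay between 0 and 2. Without wt control replicate 1 the mean FC of miR-137 turned for *P2rx7*-/- controls (range over all samples left out 0.923 to 2.97) and for *P2rx7*-/- post-SE mice (0.95 to 3.17) against wt controls, as did *P2rx7*-/- minus wt for miR-137 (−0.30 to 0.55). Post-SE minus control also turned for miR-9# without *P2rx7*-/- post-SE replicate 1 (−0.27 to 0.053), for miR-124# without wt control replicate 1 or *P2rx7*-/- control replicate 1 (−0.38 to 0.51) and for miR-128a without wt control replicate 1 or *P2rx7*-/- post-SE replicate 1 (−0.082 to 0.16). Without wt control replicate 2, which leaves replicate 1 as the 1 wt control value of miR-138, both averaged differences of miR-138 passed the adjusted limma test (6.61 and 6.95).

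Deviations from group means of same-numbered samples correlated at −0.227 to 0.277, and 4 of 18 pairs were above 0.1. Those of differently numbered samples correlated at −0.232 to 0.263, with 5 of 36 pairs above 0.1. The best correlation was with a sample of the same number for 6 samples. Whether same-numbered samples were handled together was not tested. With the replicate number as a block, limma called 0 of 335 assays in all 8 contrasts, as without it. Each neuron-enriched assay has at most 1 Ct per sample, and both ends of the listed range limit what empty values can say.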

Other observations

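Markers of other cell types were read from lists of miRNA numbers, and limma called 0 assays in each for status epilepticus averaged over genotypes. Oligodendrocyte miRNAs (miR-219 and miR-338; 4 of 6 assays with a Ct in all samples) had 2 of 4 higher post-SE, led by miR-219-2-3p (log2 difference 1.07 ± 0.68, SE, limma, adjusted p = 0.829). Their summed level was 9.18 in wt control replicate 1 and 6.36 and 7.46 in the other wt controls. It was 3.63 to 5.88 in *P2rx7*-/- controls, 4.85 to 8.31 in wt post-SE and 4.77 to 19.4 in *P2rx7*-/- post-SE mice. Microglial and myeloid miRNAs (miR-142, miR-146, miR-155 and miR-223, with 7 of 9 assays) had 5 of 7 higher post-SE. The lowest p was that of the assay rno-miR-146B (0.48 ± 0.31, SE, limma, adjusted p = 0.829), and hsa-miR-146b is a separate assay. The summed level of the 7 was 60.03 in wt control replicate 1 and 80.2 and 156 in the other wt controls. It was 81.7 to 121 in *P2rx7*-/- controls, 75.9 to 95.8 in wt post-SE and 74.7 to 189 in *P2rx7*-/- post-SE mice.

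Vascular miRNAs were represented by miR-145 alone among 6 assays (1.02 ± 0.67, SE, limma, adjusted p = 0.829), whose level on the linear scale was 3.83 in wt control replicate 1 and 23.98 to 245 in the other samples. The red blood cell miRNAs miR-486 and a second assay of 3 on the list both had lower means post-SE (miR-486 −0.94 ± 0.46, adjusted p = 0.829), and their sum was 24.7 in wt control replicate 1, above the 4.35 to 17.8 of the other samples. Their part in the levels of the neuron-enriched assays was not tested.

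Of 12 assays for miRNAs of muscle, liver and pancreas, 4 had a Ct in all samples, led by miR-206 (−0.83 ± 0.47, SE, limma, adjusted p = 0.829). miR-133a, a muscle miRNA, had the lowest median Ct on this list, 16.08 in this hippocampal RNA, against 17.36 for miR-138#. The median Ct of the other assays on the list ran from 18.5 to 27.87, all higher than that of miR-138#. The plant control ath-miR159a, which mouse RNA should not hold, had a Ct in 2 samples: 23.95 in wt control replicate 1, where miR-138 read 23.99, and 13.47 in *P2rx7*-/- post-SE replicate 1, where miR-138 was empty. miR-138 was also empty in wt control replicate 3, where the plant control had no Ct. Whether the readings of these 2 assays are related was not tested.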
